A study of Mus musculus with 10 samples.

Results

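miR-21a is made from 1 hairpin that yields a pair of mature miRNAs, the guide arm miR-21a-5p and the passenger arm miR-21a-3p. Both were taken by name from the deposited tables, so the members are 2 of 1139 mature mouse miRNAs, and both were among the 457 that passed the filter on low counts. Small RNA was sequenced from hearts of male mice of the C57Bl6N strain. All animals had undergone transverse aortic constriction 1 week earlier, an operation that narrows the aorta and loads the left ventricle with pressure. The 10 libraries are 5 of CITED4 knockout and 5 of floxed control animals, the latter with recombination sites around an intact gene. Every comparison here is therefore between genotypes after the same operation. The age of the mice, the Cre driver behind the knockout and whether a library is 1 animal or a pool are not stated in the labels. The p-values thus rest on the spread between libraries, and part of that spread may be technical.

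A miRNA hairpin is cut out of its primary transcript by Drosha and trimmed by Dicer to a short duplex. One strand is loaded into Argonaute as the guide, and most of the other strand is degraded. The miR-21 guide is induced through AP-1 and STAT3, and its processing is promoted by TGF-beta signalling through SMAD proteins. Its known targets include Spry1 and Pdcd4. In the pressure-loaded heart it is best known as a miRNA of fibroblasts and macrophages that is linked to fibrosis. The passenger strand has been described in vesicles that fibroblasts release and heart muscle cells take up. CITED4 is a transcriptional co-regulator linked to exercise-induced heart growth, but miRNA counts do not hold its messenger RNA, and genotypes were taken from the labels.

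The sequences of both arms are shown because the arms pair with each other in the hairpin yet carry different seeds, and a miRNA finds its targets mainly through its seed. The related miR-21b and miR-21c are shown because reads of near-identical miRNAs can be hard to assign. Sequences are mature miRNAs from RefSeq (GRCm38.p6), written 5′ to 3′ with the seed, bases 2 to 8, in capitals.
mmu-miR-21a-5p: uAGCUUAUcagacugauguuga
mmu-miR-21a-3p: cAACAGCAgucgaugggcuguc
mmu-miR-21b: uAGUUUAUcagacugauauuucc
mmu-miR-21c: uAGCUUAUcagacugguacaa

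The hairpin of 92 bases lies on the minus strand of chromosome 11, from 86584067 to 86584158 (GRCm38). The guide occupies 86584120 to 86584141 and the passenger 86584082 to 86584103. In GENCODE release M21 it falls within the last exon of Vmp1, a gene of autophagy on the same strand, in the part annotated as untranslated region. Of the 1139 rows, 951 matched a RefSeq sequence by name, and 0 others among these shared the seed of either arm. miR-21c, encoded on chromosome 8, has the guide's seed and its first 15 bases. It differs from the guide by A16G, G18A, U19C, U20A and G21A, counted from 1 at the guide's 5′ end. miR-21b, encoded on chromosome 3, has another seed through C4U. Neither relative has a row in the tables used here, and how reads matching several miRNAs were assigned is not given.

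The guide was among the most abundant miRNAs of these hearts. Levels are given as CPM, a read count relative to the library's total after scaling with TMM factors. In the control libraries 1 to 5 miR-21a-5p was at 85648, 81458, 30717, 35619 and 29418 CPM. In the knockout libraries 1 to 5 it was at 83320, 108149, 66385, 40161 and 88419 CPM. Controls 3, 4 and 5 were low and controls 1 and 2 high, while knockout 4 was the lowest of its group and lay above those 3 controls. The groups overlapped: 2 of 5 knockout libraries exceeded the highest control, and 3 of 5 controls lay below the lowest knockout. The control mean was 52572 ± 28415 CPM and the knockout mean 77287 ± 25544 CPM (SD, n = 5 each).

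The passenger was a rare miRNA. It had 274, 173, 158, 78 and 60 reads in controls 1 to 5, which is 23.7, 15.2, 18.5, 9.63 and 7.27 CPM. Knockouts 1 to 5 had 542, 462, 188, 188 and 506 reads, which is 44.7, 45.4, 11.9, 17.8 and 27.7 CPM. Knockouts 1, 2 and 5 lay above every control, and knockouts 3 and 4 lay inside the control range. The control mean was 14.9 ± 6.66 CPM and the knockout mean 29.5 ± 15.3 CPM (SD, n = 5 each). Counting error alone was 4.30% to 12.9% of a library's passenger level, so the spread between libraries was much larger than counting error.

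**Figure D1:**
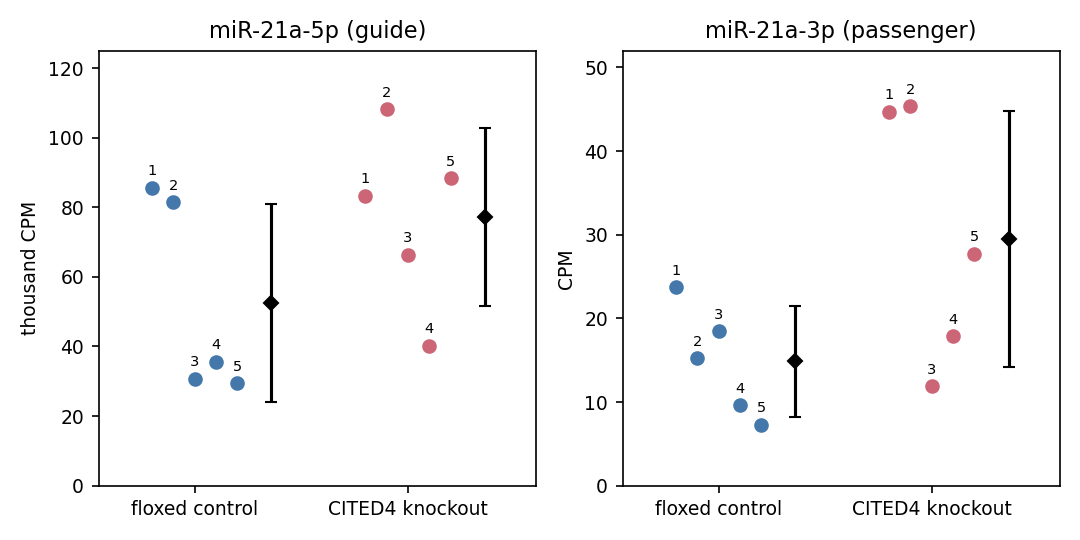
Level of miR-21a-5p (left, units of 1000 CPM) and miR-21a-3p (right, CPM) in each library, with the replicate number above each point and the mean ± SD as a black diamond with bars (n = 5 per group). Guide levels run from 29418 to 108149 CPM and passenger levels from 7.27 to 45.4 CPM, and the groups overlap in both panels.

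Neither arm passed the test between genotypes. The guide had a log2 fold change of 0.56 ± 0.35 (SE), a fold of 1.47 with a 95% interval from 0.869 to 2.49. By edgeR's quasi-likelihood test its adjusted p was 0.64. The passenger had a log2 fold change of 0.98 ± 0.39 (SE), a fold of 1.97 with a 95% interval from 1.09 to 3.56, and the same adjusted p. Its unadjusted p was 0.027 and that of the guide 0.14 in edgeR. In an exact two-sided permutation test of log2 CPM, p was 0.10 for the passenger and 0.13 for the guide. Of 5 knockout libraries, 4 lay above the control mean for the guide and 4 for the passenger. In log2 fold change the passenger stood at place 4 and the guide at place 42 of 457 miRNAs.

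The background for these tests was low. Across all 457 miRNAs, 0 (0%) passed an adjusted p of 0.05 in edgeR, with 29 at an unadjusted p under 0.05. DESeq2, limma-voom and limma on the normalized values also called 0. Without adjustment DESeq2 had 45 of 1105 miRNAs under 0.05, limma-voom 23 and limma 22. The passenger was 1 of 13 miRNAs (2.84%) with a higher mean in knockout and an unadjusted edgeR p under 0.05. Groups did not overlap for 3 of the 457 miRNAs (0.656%), and neither arm was among them. In whole-heart RNA, a change in the number of cells that hold a miRNA and a change in its amount per cell cannot be told apart.

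As a share of all counts, which needs no scaling factor, miR-21a-5p took 9.67%, 7.98%, 3.49%, 2.81% and 2.41% of controls 1 to 5. It took 10.2%, 12.4%, 6.01%, 3.94% and 8.78% of knockouts 1 to 5. Counting error in these shares was small, with a 95% Wilson interval of 3.47% to 3.50% in control 3, the shallowest library. The group means of 5.27% ± 3.32 and 8.25% ± 3.33 differed by 2.98 percentage points (SE 2.10), a difference no larger than the spread (p = 0.19 in an exact two-sided permutation test, n = 5 each). Without knockout 2 the difference was 1.95 percentage points, and without control 1 it was 4.08. With 5 libraries against 5 the smallest p of this test is 0.0079.

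miR-21a-5p stood at place 4 of 449 distinct miRNAs by mean control level and at place 2 in knockouts. Such places compare reads, and the yield of each miRNA in library preparation also enters them. Above it in controls were miR-1a-3p, the dominant muscle miRNA, at 351241 ± 122216 CPM, miR-378a-3p at 68470 ± 21264 CPM and let-7f-5p at 56135 ± 16939 CPM. Next below were let-7a-5p at 44594 ± 13968 CPM, let-7c-5p at 42178 ± 10521 CPM and the smooth muscle miR-143-3p at 30858 ± 2262 CPM (SD, n = 5 each). The guide exceeded miR-378a-3p and let-7f-5p in 2 of 5 controls each, and it exceeded each of the 3 miRNAs below it in 3 of 5, so none of these neighbours was separated from it beyond the spread. In knockouts it exceeded miR-378a-3p in 4 of 5 libraries, let-7f-5p in 3 of 5, and let-7a-5p, let-7c-5p and miR-143-3p in 5 of 5. In a single library the guide ranked from 2nd to 9th by raw count.

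The passenger stood at place 244 of 449 in controls and 197 in knockouts. Its neighbours in controls were let-7c-1-3p at 15.2 ± 3.63 CPM, miR-669c-5p at 14.9 ± 3.88 CPM and miR-330-5p at 14.9 ± 1.67 CPM above it. Below it were miR-376b-5p at 14.6 ± 2.69 CPM, miR-1306-5p at 14.1 ± 3.65 CPM and miR-381-3p at 13.9 ± 6.65 CPM. It exceeded each of these 6 in 2 or 3 of 5 controls, so their order is not resolved.

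The guide varied between libraries more than other abundant miRNAs did. The SD of its log2 CPM was 0.77 in controls, the highest among 53 miRNAs over 1000 CPM, whose median SD was 0.32. In knockouts its SD was 0.55, at place 2 of 55 such miRNAs with a median of 0.26. The passenger had an SD of 0.69 in controls and 0.84 in knockouts, against medians of 0.39 and 0.35 over all 457 miRNAs. The highest control exceeded the lowest 2.91-fold for the guide and 3.27-fold for the passenger, and in knockouts these spans were 2.69-fold and 3.82-fold. Guide levels left a gap of 0.73 on the log2 scale between knockout 4 and knockout 3. The 4 libraries below it were controls 3, 4 and 5 and knockout 4, and the 6 above it were 2 controls and 4 knockouts.

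**Figure D2:**
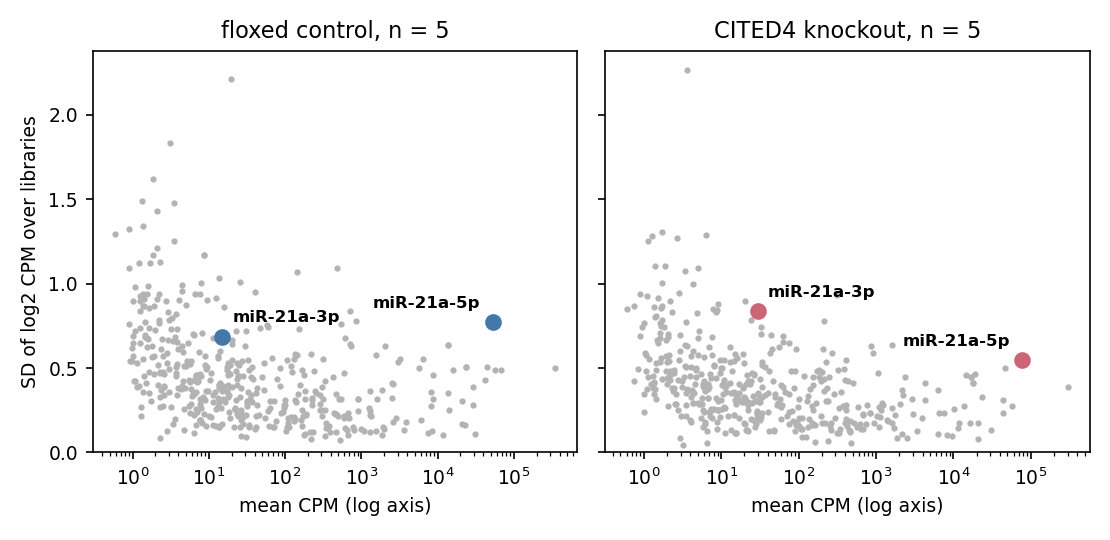
SD of log2 CPM over the 5 libraries of a group (vertical axis) against mean CPM (horizontal log axis) for 457 miRNAs (grey), in controls (left) and knockouts (right), with both arms of miR-21a coloured. The guide's SD of 0.77 in controls is the highest among the 53 miRNAs over 1000 CPM.

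Among the 136 hairpins with both arms past the low-count filter, miR-21a had the highest mean arm ratio. The arm ratio is the log2 of guide over passenger reads within a library, with 0.5 added to each count, and library scaling does not enter it. Guide reads per passenger read were 3606, 5356, 1661, 3699 and 4045 in controls 1 to 5. They were 1864, 2383, 5592, 2250 and 3187 in knockouts 1 to 5. Control 3 had the lowest ratio of all and knockout 3 the highest, so the groups overlapped over most of their range. The log2 arm ratio was 11.74 ± 0.63 in controls and 11.46 ± 0.62 in knockouts (SD, n = 5 each). The difference of -0.28 (SE 0.39) did not exceed the spread (p = 0.48 in an exact two-sided permutation test). The larger fold change of the passenger than of the guide was thus not resolved, since the arm ratio is the test of that difference.

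As a share of miR-21a reads, the passenger made up 0.0187% to 0.0602% in controls and 0.0179% to 0.0536% in knockouts. The 95% Wilson interval was 0.0515% to 0.0703% in control 3 and 0.0161% to 0.0217% in control 2, so libraries of 1 group differed by more than counting error.

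**Figure D3:**
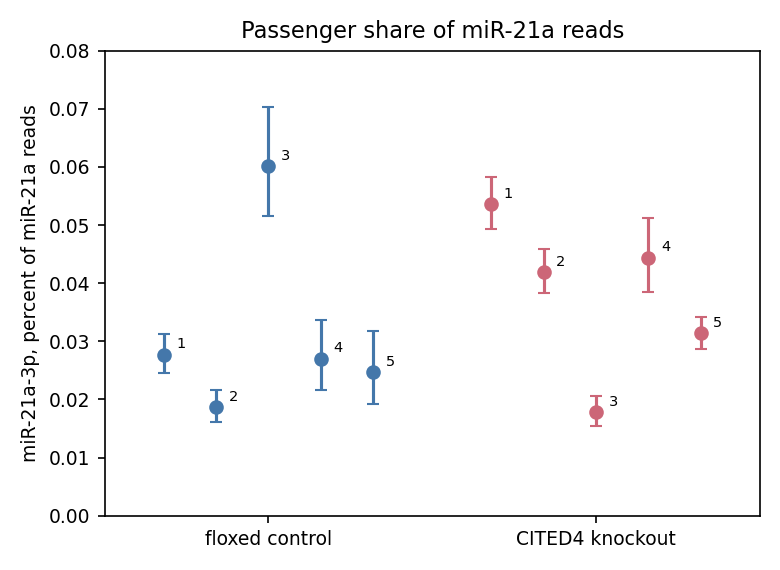
miR-21a-3p as a percent of all miR-21a reads (vertical axis) in each library, numbered by replicate, with 95% Wilson intervals that cover counting error only. Shares run from 0.0187% to 0.0602% in controls and from 0.0179% to 0.0536% in knockouts, and libraries of 1 group differ by more than their intervals.

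Over the 136 hairpins and 10 libraries, the mean log2 ratio of 5p over 3p was 11.60 for miR-21a, the highest of all and also the highest in absolute value. Next were miR-486b, whose guide counts are identical to those of miR-486a, at 11.23 and let-7g at 11.11. At the other end, where the 3p arm dominates, were miR-143 at -11.30, miR-29a at -9.20 and miR-221 at -8.76. The lead of miR-21a over miR-486b, let-7g and, in absolute value, miR-143 was smaller than the SD of its own ratio in either group. The median absolute log2 ratio was 3.85, and 6 of 136 hairpins exceeded 10. Because rarer passengers fall below the filter, this order holds only for hairpins with both arms tested. Between genotypes, limma on all arm ratios called 0 of 136 (0%), with 4 (2.94%) at an unadjusted p under 0.05. miR-21a stood at place 58 by p, with an adjusted p of 0.96 in limma. The SD of its arm ratio, 0.63 in controls and 0.62 in knockouts, stood at places 35 and 22 of 136, above the medians of 0.43 and 0.36.

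**Figure D4:**
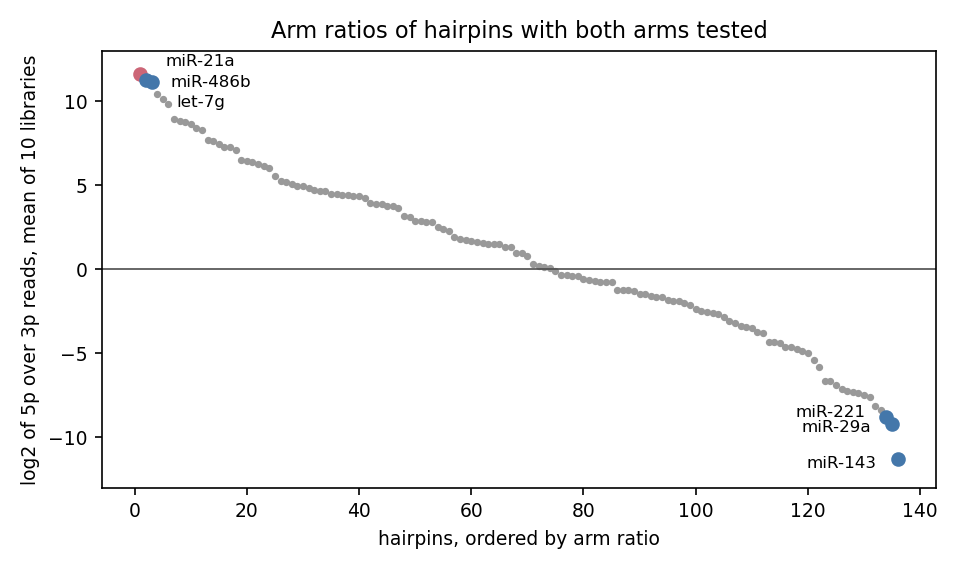
Mean log2 ratio of 5p over 3p reads over 10 libraries (vertical axis) for the 136 hairpins with both arms tested, ordered along the horizontal axis, with the 3 highest and 3 lowest coloured and named. miR-21a is at the top with 11.60 and miR-143 at the bottom with -11.30.

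The arms varied together only in part. Over the 10 libraries their log2 CPM values had a Pearson r of 0.73 (permutation p = 0.021) and a Spearman rho of 0.81 (permutation p = 0.0071). Without controls 3 and 5, the libraries farthest from the median of the guide, r was 0.72 (n = 8, permutation p = 0.042). Within the 6 libraries above the gap in guide levels, r was 0.79 (permutation p = 0.051). By Pearson r the relation missed the threshold without control 5 (r = 0.63, permutation p = 0.072) and without knockout 2 (r = 0.65, permutation p = 0.060). It also missed it as deviations from the group means (r = 0.63, permutation p = 0.054). In the same cases the Spearman rho was 0.73, 0.73 and 0.65 (permutation p = 0.030, 0.031 and 0.049). Within the 6 libraries rho was 0.83 (permutation p = 0.059). Control 3 had a low guide level with a middling passenger level, and knockout 3 the reverse.

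Over all 10 libraries, some other miRNAs followed each arm more closely than the arms followed each other. Of 447 distinct miRNAs, 76 had a higher r with the guide than the passenger had, and 59 a higher r with the passenger than the guide had. These values describe 10 libraries, with 5 in each group, and carry no test. The guide was most like miR-199a-3p, a miRNA of mesenchymal cells (r = 0.98, rho = 0.96). The other 7 of the closest 8 had r from 0.96 to 0.98. Among them were miR-214-5p, from the Dnm3os transcript, and miR-34c-3p, miR-34b-3p and miR-34c-5p of the p53-linked miR-34 group. The rest were miR-379-5p, miR-541-5p and miR-369-5p of the imprinted Dlk1-Dio3 cluster. Within the 6 libraries above the gap the r of the closest 8 ran from 0.70 for miR-379-5p to 0.90 for miR-214-5p, and it was 0.81 for miR-199a-3p. For 4 of the 8, miR-379-5p, miR-541-5p, miR-34c-5p and miR-34c-3p, it was there below the 0.79 between the arms.

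The miRNAs most opposed to the guide were miR-30c-2-3p (r = -0.98), miR-149-5p (r = -0.98) and miR-29a-3p (r = -0.98), the last a repressor of collagen transcripts. With library totals only in place of TMM scaling, these became -0.45, -0.78 and -0.39, while the 8 closest stayed at 0.98 or 0.99. None of these 11 miRNAs passed the test between genotypes in edgeR, with adjusted p values of 0.64 to 0.65.

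The passenger had other names among its closest 8. Its closest miRNAs were miR-1843b-5p (r = 0.95), miR-142a-3p of blood cells (r = 0.93) and miR-490-5p, encoded in Chrm2 (r = 0.92). The next were miR-411-3p, miR-431-5p and miR-154-3p of the Dlk1-Dio3 cluster, the hypoxia-induced miR-210-3p, and miR-511-3p of the macrophage gene Mrc1, with r from 0.90 to 0.92. None of these 8 was among the 8 closest to the guide, but both sets hold miRNAs of the Dlk1-Dio3 cluster. The most opposed were miR-181b-5p (r = -0.996), miR-23b-3p (r = -0.95) and miR-181a-5p (r = -0.95). With library totals only these became -0.62, -0.44 and -0.0068, while the 8 closest had r from 0.94 to 0.98. Of these 11, miR-431-5p alone had an unadjusted p under 0.05 in edgeR, and 0 passed after adjustment.

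Markers of the cell types of a heart were set beside the guide. The labelled tissue showed its markers: the 5 heart muscle miRNAs summed to 242723 to 504415 CPM in controls and 220621 to 386838 CPM in knockouts. Of the 7 markers of other organs, which summed to 562 to 825 CPM in controls and 440 to 784 CPM in knockouts, the brain miRNA miR-124-3p was at 0 in all libraries. The most abundant of them was miR-9-5p, also known from brain, with a control mean of 316 ± 76.9 CPM and a knockout mean of 327 ± 114 CPM (SD, n = 5 each). The 6 fibroblast and mesenchymal markers summed to 9510 to 23805 CPM in controls and 12675 to 25112 CPM in knockouts. All 6 had a higher mean in knockout, with a median log2 fold change of 0.34, and 0 of 6 passed in edgeR. Across the 10 libraries the log2 of this sum had an r of 0.98 with the guide and 0.69 with the passenger. In its control mean of 14914 CPM, miR-199a-3p, the miRNA most like the guide, made up 13638 CPM. The r of the sum with the guide therefore largely repeats that of miR-199a-3p.

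The sum of the listed erythroid markers, of which 3 of 4 had a row and miR-451a had none, ran opposite to the guide, with r = -0.92. Its control mean was 24266 CPM, of which miR-486a-5p, a miRNA of both blood and muscle, made up 23545 CPM. This r is therefore mostly that of 1 miRNA and cannot be read as one of erythroid cells alone. The heart muscle sum had an r of -0.61 with the guide and -0.88 with the passenger. In its control mean of 356897 CPM, miR-1a-3p made up 351241 CPM. The other sums had r with the guide of -0.55 for the 2 endothelial, -0.30 for the 4 smooth muscle and -0.26 for the 7 leukocyte markers. With the passenger these were -0.65, 0.13 and -0.29, although miR-142a-3p of the leukocyte list was among its closest. All 5 heart muscle, both endothelial and all 3 erythroid members had a lower mean in knockout, as did 2 of 4 smooth muscle and 4 of 7 leukocyte members (1 and 3 with library totals only), and 0 passed in any list in edgeR. The part of these cell types in the level of miR-21a was not tested.

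Within each library the guide was divided by 1 marker per cell type. Reads of miR-21a-5p per read of miR-199a-3p were 3.95, 4.31, 3.52, 3.52 and 3.35 in controls 1 to 5 and 5.04, 4.72, 4.34, 3.42 and 3.85 in knockouts 1 to 5. This ratio stayed between 3.35 and 5.04 over all libraries, while the guide's own CPM spanned 3.68-fold. The mean log2 ratio was 1.89 ± 0.15 in controls and 2.08 ± 0.23 in knockouts (SD, n = 5 each), a difference of 0.19 (exact two-sided permutation test, p = 0.17). The SD of the log2 ratio over 10 libraries was 0.21, against 0.72 for the guide's log2 CPM.

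**Figure D5:**
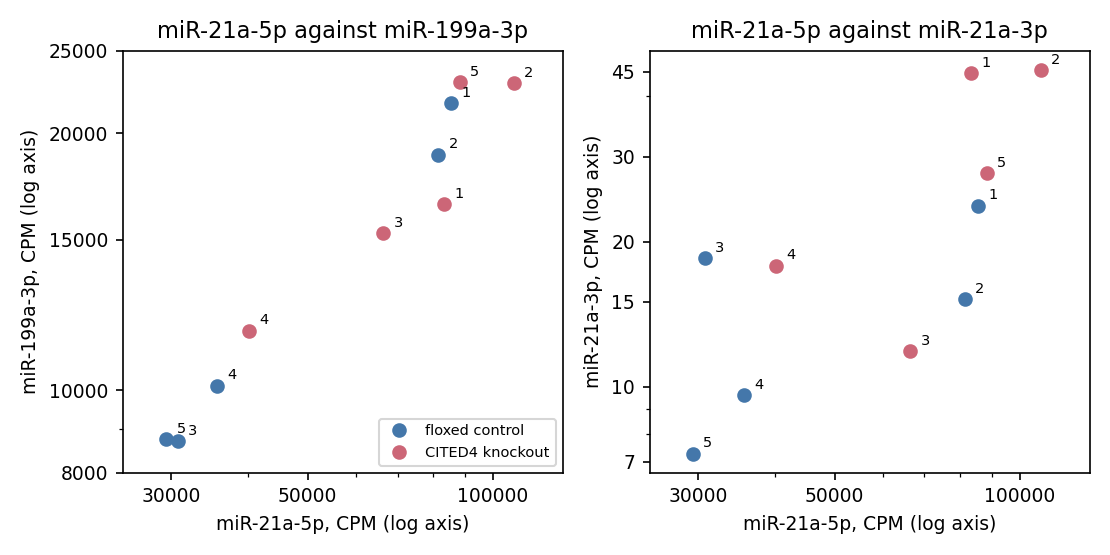
miR-21a-5p (horizontal log axis, CPM) against miR-199a-3p (left) and miR-21a-3p (right, vertical log axes, CPM) in 10 libraries numbered by replicate. Over all 10 libraries the points lie close to a line with miR-199a-3p (r = 0.98) and scatter more with the passenger arm (r = 0.73). Within the 6 libraries above the gap in guide levels, r was 0.81 with miR-199a-3p and 0.79 with the passenger arm.

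Relative to the other markers the guide varied as much as it did on its own or more, with SDs of 0.76 to 1.64 over the 10 libraries. The knockout minus control difference in log2 ratio was 0.85 against miR-1a-3p of heart muscle, 0.79 against miR-126a-3p of endothelium and 0.68 against miR-143-3p of smooth muscle. It was 0.91 against miR-142a-5p of leukocytes and 1.23 against miR-144-3p of erythroid cells. The control mean of miR-142a-5p itself was 112 ± 11.7 CPM and its knockout mean 93.7 ± 10.8 CPM (SD, n = 5 each). For the other arm of that hairpin, miR-142a-3p, the knockout mean was the higher, at 332 ± 58.8 CPM against 304 ± 43.9 CPM. The difference against miR-142a-5p thus depends on the arm taken as the marker. All 6 differences had the same direction, with 4 of 5 knockouts above the control mean in each, and share the guide as numerator. The 6 exact two-sided permutation tests gave p from 0.063 to 0.27, and adjusted over the 6 ratios p was 0.21 to 0.27. With the mean over each marker list in place of 1 marker, the guide's differences were 1.03 for heart muscle and 0.26 for fibroblasts. They were 0.79 for endothelium, 0.65 for smooth muscle, 0.68 for leukocytes and 1.12 for erythroid cells. For the passenger the 6 differences ran from 0.47 against miR-199a-3p to 1.51 against miR-144-3p, with adjusted p of 0.21 to 0.27 by the same exact test. These sizes rest on few libraries. The guide's difference against miR-144-3p was 0.80 without control 5 and 1.84 without control 1, that against miR-1a-3p was 0.56 without control 5, and that against miR-199a-3p was 0.13 without knockout 1. The passenger's difference against miR-199a-3p was 0.26 without knockout 1 and 0.71 without control 3 or knockout 3, and that against miR-144-3p was 0.96 without knockout 1.

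miR-21a was also read beside other miRNAs linked to fibrosis and remodelling. All 31 miRNAs of that list were tested, 14 had a higher and 17 a lower mean in knockout, and 0 passed in edgeR. The median log2 fold change was -0.045, against 0.028 over all 457 miRNAs, of which 243 were higher. Scaling by library totals only raised the median of all miRNAs by 0.11 on the log2 scale, to 0.14 with 296 higher, and that of the list to 0.060 with 18 of 31 higher, so the list's direction depends on the scaling. The passenger had the highest fold change of the list and the guide the next. The 6 with the smallest p were the passenger, miR-133a-3p (log2 fold change -0.46 ± 0.17 SE), miR-30a-5p (-0.61 ± 0.23), miR-133b-3p (-0.56 ± 0.22), miR-30d-5p (-0.52 ± 0.22) and miR-29c-3p (-0.56 ± 0.25). These 5 others, known as repressors of profibrotic transcripts or as muscle miRNAs, had means below those of controls. Their adjusted p in edgeR was 0.64, and the list was not tested as a set.

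The libraries held 7526091 to 18369483 counts, and the totals did not separate the groups (exact two-sided permutation test, p = 0.24). Over 10 libraries the log2 total had an r of 0.36 with the guide's log2 CPM, -0.12 with that of the passenger and 0.59 with the arm ratio. The Spearman rho values were 0.16, -0.30 and 0.60 (permutation p = 0.66, 0.41 and 0.072). The permutation p values of r were 0.31, 0.75 and 0.071, or 0.46, 0.75 and 0.21 when adjusted over the 3. Without knockouts 3 and 5, the deepest libraries, r was 0.24, -0.26 and 0.71. The labels give no sequencing batch.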

How the data were processed

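The authors deposited raw read counts per mature miRNA and a table of normalized values. The second table, a linear signal deposited by the authors, equals the count divided by 1 factor per library (relative tolerance 1e-09), which matched the size factor of DESeq2. Tools named in the submitters' processing notes, without roles, are Bowtie, STAR, DESeq2 and cutadapt 1.10, with build GRCm38. No source used here gives the miRNA annotation, the multi-mapping rule or any molecular identifiers. Columns were matched to samples by genotype and replicate number in the titles. No libraries of a group agreed within sampling noise (lowest chi-square 108 for each degree of freedom).

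Of 1139 rows, 457 passed filterByExpr and held 99.99% of counts. Knockout was compared with control by edgeR 4.0.16 (quasi-likelihood, TMM, genotype only, Benjamini-Hochberg, threshold 0.05, R 4.3.3). A prior count of 2 entered log2 CPM. Arm ratios of 136 hairpins were fitted with limma 3.58.1, and DESeq2 1.42.0 and limma-voom were alternatives. Single values were compared by exact permutation tests, and correlations used 100000 permutations. On simulated data with 444 miRNAs, edgeR called 85.1% of changes of 1 and all changes of 2 on the log2 scale, and 1.57% of unchanged miRNAs. The simulation gave every miRNA the same fixed spread between libraries, not that of the arms. These rates therefore do not say how often a change of miR-21a would be called. Intervals and counts of reads cover counting error only.

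Members and lists were chosen with earlier results of these data known. The text names, by rule, both arms, the 8 tested miRNAs most like and 3 least like each arm by Pearson r, the 3 next above and below each in level, those sharing a seed, 1 marker per cell type, 6 of the fibrosis list by p, and the 3 hairpins at each end of the arm ratios. The 1000 CPM level, the gap in guide levels and the passenger's marker ratios were chosen after values were seen. Replicate numbers 1 to 5 occur in both groups without a stated meaning, so they were not taken to pair libraries. A miRNA counted in identical rows, as for 15 of the 457, was ranked once.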

Additional observations from a re-analysis of the deposited data

Results flagged for a closer look

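For 60 values in both groups of 5 libraries, the distance of the most extreme library from the next was divided by the range of its group. This quotient passed Dixon's 95% critical value of 0.71 in 3 of 120 cases, and chance passes about 1 in 20, or 6.0. Knockout 4 stood apart in the log2 ratio of miR-21a-5p to miR-143-3p, at 0.37 against 1.37 to 1.74 in the other knockouts (quotient 0.734). miR-143-3p was lowest in knockout 3, with 25640 CPM while the others had 30905 to 32415 CPM (0.777), and it enters the same ratio as its denominator. Knockout 4 had 151 CPM of miR-149-5p, one of the miRNAs most opposed to the guide, against 66.8 to 88.6 CPM (0.741). The levels of the guide and the passenger, their arm ratio and the guide's share of counts had no such library.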

How the results depend on the processing

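Of 213 alternative values for 14 main results, all but 5 were the same, meaning the same side of the threshold, or, for values without a test, a shift within the spread, and 0 called values reversed. This tally leaves out the passenger's marker ratios and the r of the miRNAs most and least like each arm. It also leaves out the count at an unadjusted p under 0.05, which moved in 13 of 20 alternatives. The guide's log2 fold change ranged from 0.42 to 0.82 with 1 library left out and from 0.55 to 0.90 otherwise (adjusted p from 0.18 to 0.99 over 20 fits), and that of the passenger from 0.81 to 1.23 and from 0.89 to 1.15 (adjusted p from 0.18 to 0.99). With the replicate number as a block, which changed no call, they were 0.64 (adjusted p = 0.22) and 0.94 (adjusted p = 0.18) in edgeR. Libraries sharing a number had deviations with correlations from -0.12 to 0.45, and for 4 of 10 the best partner was the one of the same number. These values do not settle whether the numbers mark pairs, so the main tests did not use them. As differences within numbers, the guide's share of counts had p = 0.0625 in an exact sign-flip test. That is the smallest p such a test can give with 5 pairs, so it could not pass the threshold. The count of miRNAs called stayed at 0. The count of 29 at an unadjusted p under 0.05 ranged from 6 without control 5 to 84 without control 1, and was 14 with library totals only, 102 without a filter, 99 with sample weights, 45 with DESeq2 and 72 with the block. The arm ratio difference ranged from -0.54 without control 3 to -0.12 without control 2. The correlation of the arms became 0.63 as deviations from group means, 0.79 within 6 libraries and 0.63 to 0.81 with 1 library left out. The median of the fibrosis-linked list became 0.060 with library totals only, and ranged from -0.042 to 0.0094 with 1 library left out. The spread between libraries, larger than the passenger's counting error of 4.30% to 12.9%, limits how small a change could be seen. With 1 library left out, the guide's share difference ranged from 1.95 to 4.08 percentage points, its marker ratio differences from 0.13 to 1.84 and those of the passenger from 0.26 to 2.10. Alternatives within 6 libraries, and all those for miRNAs most like each arm, were chosen after seeing the data. For these changes the cause was not tested.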
